A study of Ovis aries with 32 samples.

Results

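The genes of the semaphorin, ephrin, slit and netrin guidance families and their receptors were followed through 4 fat depots of adult female sheep. They were taken as every row of the count table whose symbol begins with SEMA3 to SEMA7, PLXN, EPHA, EPHB, EFNA, EFNB, UNC5 or NTN, or is NRP1, NRP2, one of SLIT1 to SLIT3 or one of ROBO1 to ROBO4. This gave 69 of 28524 genes: 20 semaphorins, 9 plexins, 2 neuropilins, 8 ephrins, 11 Eph receptors, 3 slits, 4 roundabout receptors, 6 netrins and 4 UNC5 receptors. The other 2 rows matched by letters only. UNC50, a membrane protein of the Golgi, is no guidance receptor, and UNC5CL had no count in any library. Both are kept in the counts below, where UNC50 was tested throughout and UNC5CL never.

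From each of 8 sheep the mesenteric fat around the rumen (visceral), sternal fat (subcutaneous), fat around the kidney (perirenal) and fat on the heart (epicardial) were sampled, which gave 32 libraries and 4 animals per depot in each treatment group. Mothers of the 4 testosterone sheep had received 100 mg testosterone propionate (1.2 mg/kg) in corn oil 2 times a week between days 30 and 90 of gestation, and those of the 4 controls belonged to the control group of the same study. The treatment is a sheep model of polycystic ovary syndrome. All 8 daughters shared the same later history: they were ovariectomized, carried an estradiol implant, were given 2 progesterone implants for 14 days, then 4 estradiol implants, and tissue was taken 18 h later. Counts are of transcript 3′ ends, so transcript length does not enter them, and levels are given as CPM, the count scaled by the adjusted size of its library. Values in control sheep are listed in the order of sheep 98, 131, 132 and 201, and those in testosterone sheep in the order 48, 185, 233 and 255.

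Guidance cues were first described as signals that attract or repel the tips of growing axons, and the same ligand and receptor pairs steer blood and lymphatic vessels, immune cells and other migrating cells. Semaphorins act through plexins, with neuropilins as co-receptors for the secreted class 3 members. Slits act through roundabout receptors, netrins through DCC, neogenin and UNC5 receptors, and ephrins bind Eph receptor tyrosine kinases on the neighbouring cell, where both partners can signal. Fat is supplied by sympathetic nerves and a dense capillary bed, and it also secretes some of these cues.

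Total counts ran from 784135 to 8267824 per library. A whole-tissue library cannot tell fewer cells of a type from less RNA per cell. Adipocyte marker genes summed to 9971 to 54800 CPM, the lowest in an epicardial library, so that fat was present in each library. Of the libraries, 3 of the testosterone group stood apart. The subcutaneous library of sheep 48, which was also the shallowest, and the visceral library of sheep 255 held 26355 and 19704 CPM of the splicing-related gene ARGLU1, against at most 4996 elsewhere. The epicardial library of sheep 255 held 94.6 CPM of HOXC6, which was at most 2.21 in the other 7 epicardial libraries and at least 74.3 in the other depots, so that library goes against its label. Among epicardial libraries, 4 held cardiac muscle genes above 1000 CPM in sum (control sheep 98 and 131, testosterone sheep 48 and 233), and the lowest of that depot held 17.7 CPM. Depot counts, and calls that are lost without these libraries, are also given without them.

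Of the 69 genes, 68 had at least 1 count and 47 had counts in all 32 libraries. A filter on low counts left 54 for the depot test in control sheep and 52 in testosterone sheep. All 20 semaphorins passed it, but only 7 of 11 Eph receptors, 3 of 6 netrins, 2 of 4 UNC5 receptors and 2 of 3 slits. The highest mean level among the 15 that did not pass was 0.904 CPM, that of the netrin receptor UNC5C. In each family 1 gene had the highest mean level over the 32 libraries, namely the co-receptor NRP1 at 278 CPM, the transmembrane semaphorin SEMA6A at 181 CPM, the plexin PLXNA4 at 146 CPM, the membrane-anchored ephrin EFNA5 at 127 CPM and the basement membrane netrin NTN4 at 67.5 CPM. The corresponding levels were 55.5 CPM for the endothelial receptor ROBO4, 37.6 CPM for SLIT3, 21.7 CPM for the venous receptor EPHB4 and 19.0 CPM for the endothelial netrin receptor UNC5B. Of the genes named below, those that are not among these 9, are not SLIT2 and are not nearest to a testosterone or interaction difference were chosen after their values were seen.

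**Figure D1:**
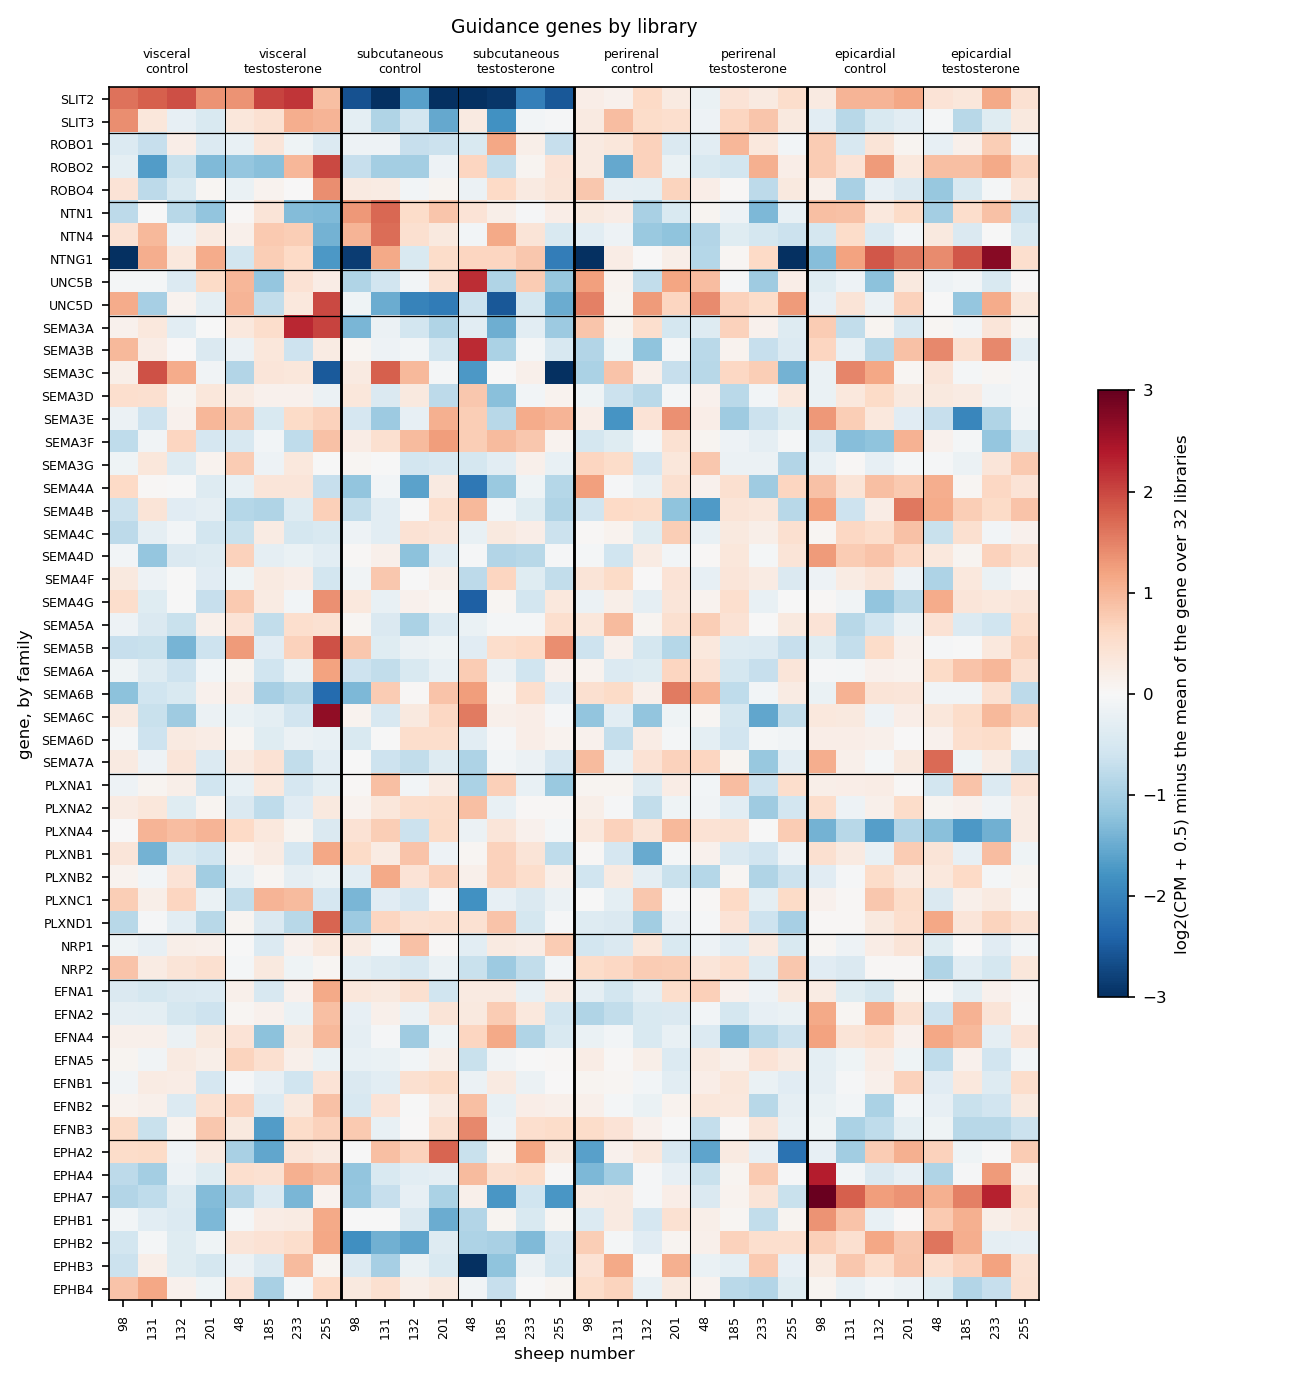
Heatmap of the guidance genes that passed the low-count filter in control sheep (rows, by family) in the 32 libraries (columns, by depot, treatment and sheep). Colour is log2(CPM + 0.5) minus the mean of the gene over the 32 libraries, with red above and blue below that mean. SLIT2 is blue in the 8 subcutaneous libraries, and NTNG1 is blue in the 4 libraries of control sheep 98.

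In control sheep the genes of the set differed between depots about as often as other genes. With edgeR's quasi-likelihood test and the sheep as a block, 22 of 54 (40.7%) passed the joint test of the 4 depots at a false discovery rate under 0.05, against 39.9% of the 13369 genes tested. Each depot was then set against the mean of the other 3. In visceral fat 7 genes differed (5.73% of all genes), 3 higher (3.49%) and 4 lower (2.24%). In subcutaneous fat 14 differed (23% of all genes), 4 higher (11.4%) and 10 lower (11.6%). Markers of other cells moved with this: in subcutaneous fat 6 of 6 T and NK cell markers, 4 of 7 fibroblast, 4 of 7 Schwann cell and neuron, 4 of 7 smooth muscle and 3 of 5 macrophage markers were lower, while 4 of 10 adipocyte markers were higher and 1 lower. Their part in the count was not tested. In perirenal fat 10 differed (13.8% of all genes), 6 higher (7.73%) and 4 lower (6.04%). In epicardial fat 17 differed (27.8% of all genes), 12 higher (15.3%) and 5 lower (12.4%), UNC50 among the latter. The median log2 difference of the 54 genes was 0.32 in epicardial fat (0.03 over all genes), -0.14 in visceral (-0.0032), -0.05 in subcutaneous (0.01) and 0.04 in perirenal fat (-0.0080). Of these 48 calls, 17 in 11 genes also passed under each of 9 alternatives, which were leaving out each control sheep, the 2 cardiac-rich epicardial libraries, the block or the filter, and 2 uses of DESeq2. The 11 genes were SLIT2, ROBO2, NTN1, NTN4, UNC5D, SEMA5A, PLXNA4, NRP2, EFNA2, EPHA7 and EPHB2. The number passing the joint test was 14 without sheep 131 and 17 to 22 without any other control sheep. In each of the 4 depots the count without sheep 131 was at least 1.5 times smaller (11 in epicardial, 7 in subcutaneous, 5 in perirenal and 2 in visceral fat). The same held for sheep 98 in visceral (3), subcutaneous (9) and epicardial fat (11), for sheep 201 in visceral (2) and perirenal fat (5), and for sheep 132 in visceral fat (4). Each of these fits had 1 sheep fewer, and the shares of all genes called in them are not given here. Whether other genes lost calls alike therefore cannot be read from these counts.

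SLIT2 encodes a secreted ligand of roundabout receptors, a fragment of which is known as a factor released by beige fat cells. In control sheep it lay at 54.0, 61.0, 66.6 and 44.4 CPM in visceral fat and at 2.40, 1.59, 5.17 and 1.63 CPM in subcutaneous fat. It lay at 19.8, 18.8, 26.3 and 20.9 CPM in perirenal fat and at 20.6, 35.0, 35.5 and 38.8 CPM in epicardial fat. The visceral libraries lay above, and the subcutaneous libraries below, those of any other depot, which held for 0.239% and 2.03% of all genes. Perirenal and epicardial levels overlapped through the epicardial library of sheep 98. The mean was 56.5 ± 9.58 CPM (SD, n = 4) in visceral and 2.70 ± 1.69 CPM in subcutaneous fat, a ratio of 21.0. On the log2 scale SLIT2 was higher by 2.20 (SE 0.17, adjusted p = 4.2e-07) in visceral fat, lower by -3.68 (SE 0.25, adjusted p = 2.19e-08) in subcutaneous fat and higher by 1.14 (SE 0.18, adjusted p = 0.000144) in epicardial fat. The 4 testosterone sheep had the same order of means. Their levels were 44.5, 71.8, 77.3 and 32.6 CPM in visceral fat, 1.35, 1.82, 3.78 and 2.53 CPM in subcutaneous fat, 14.8, 22.9, 20.7 and 25 CPM in perirenal fat and 22.8, 21.7, 38.1 and 23.7 CPM in epicardial fat. The differences there were 2.32 (SE 0.20, adjusted p = 0.000102) for visceral and -3.65 (SE 0.30, adjusted p = 8.83e-06) for subcutaneous fat, and 2.54 and -3.77 without the 3 libraries that stand apart. Markers of the mesothelium, which lines the body cavities, were also lowest in subcutaneous fat. Their control medians were higher in perirenal (76.5 CPM) than in epicardial fat (67.0 CPM), the reverse of the SLIT2 means. In control sheep the list summed to 81.4 to 155 CPM in visceral, 54.5 to 111 in perirenal, 60.2 to 77.0 in epicardial and 1.27 to 3.15 in subcutaneous fat. Most of this was WT1, while MSLN was under 0.1 CPM and CALB2 at 0 in each depot, and 2 of the 6 markers were testable and lower in subcutaneous fat. Their part in the SLIT2 difference was not tested.

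SLIT3, the other slit above the filter, varied less and more unevenly. It was at 27.3, 17.7, 22.7 and 11.2 CPM in subcutaneous, 40.6, 63.6, 48.9 and 47.6 CPM in perirenal, 26.8, 18.5, 24.3 and 26.7 CPM in epicardial and 88.6, 42.6, 28.2 and 24.3 CPM in visceral fat of control sheep. The perirenal libraries lay above all subcutaneous and epicardial ones, while the visceral libraries overlapped those of each other depot. SLIT3 was higher in perirenal (0.93, SE 0.24, adjusted p = 0.0237) and lower in subcutaneous fat (-0.98, SE 0.28, adjusted p = 0.0214). Both calls were lost without sheep 131 (adjusted p = 0.154 and 0.0883) and without sheep 201 (0.0801 and 0.0744), and the perirenal one also without sheep 132 (0.0673) and without the block (0.0625). SLIT1 had 12 counts over the 32 libraries.

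Of the roundabout receptors, ROBO2 differed between depots. In control sheep it was at 20.6, 15.9, 29.3 and 14.8 CPM in epicardial fat, at 9.57, 3.39, 7.30 and 4.42 CPM in visceral fat and at 7.19, 5.56, 5.62 and 10.7 CPM in subcutaneous fat. Epicardial libraries exceeded those of both depots, while the perirenal libraries (14.3, 3.79, 19.4 and 10.2 CPM) overlapped with them. The epicardial difference was 1.35 (SE 0.24, adjusted p = 0.00059). ROBO4, a receptor of endothelial cells, was at 26.4 to 57.6 CPM in epicardial and 42.6 to 91.0 CPM in perirenal control libraries, and its joint test gave an adjusted p of 0.0520. The mean of ROBO1 was between 7.07 and 11.5 CPM in the 4 depots of control sheep, with an adjusted p of 0.0840 in the joint test.

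Among netrins, NTN1 and NTN4 were both highest in subcutaneous fat. NTN1, the secreted netrin that gave the family its role in axon attraction, was at 7.91, 10.9, 4.5 and 5.61 CPM in subcutaneous fat of control sheep and at 1.5, 2.90, 1.43 and 1.02 CPM in visceral fat. It was at 3.69, 3.49, 1.26 and 2.01 CPM in perirenal and 5.89, 5.86, 3.79 and 4.59 CPM in epicardial fat. The visceral and subcutaneous libraries did not overlap, with 4.21-fold different means, but subcutaneous and epicardial ones did. The differences were 1.33 (SE 0.22, adjusted p = 0.000522) for subcutaneous and -1.4 (SE 0.26, adjusted p = 0.00493) for visceral fat. In testosterone sheep the subcutaneous level was 4.05, 3.38, 2.87 and 3.44 CPM, and no depot contrast of NTN1 passed there.

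NTN4 binds laminins and inhibits basement membrane assembly. It was at 122, 191, 83.2 and 73.1 CPM in subcutaneous, 81.2, 117, 53.9 and 72.5 CPM in visceral, 41.2, 87.7, 44.6 and 56.8 CPM in epicardial and 47.7, 53.7, 27.5 and 25.7 CPM in perirenal fat of control sheep. In each of the 4 sheep the subcutaneous library held the most NTN4, and between sheep the subcutaneous, visceral and epicardial libraries overlapped. All perirenal libraries lay below the subcutaneous and visceral ones but overlapped the epicardial ones. The differences were 1.01 (SE 0.13, adjusted p = 7.45e-05) for subcutaneous and -1.08 (SE 0.15, adjusted p = 0.000396) for perirenal fat. In testosterone sheep the subcutaneous mean was 77.9 ± 39.4 CPM and the perirenal mean 39.5 ± 5.79 CPM (SD, n = 4), and no contrast passed.

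The membrane-anchored netrin NTNG1 varied widely between animals. Control epicardial fat held 13.1, 76, 119 and 98.7 CPM, visceral 2.60, 69.5, 40.6 and 71.4 CPM, subcutaneous 4.07, 72.3, 23.8 and 48.3 CPM and perirenal 2.66, 38.2, 32.8 and 36.9 CPM. Sheep 98 was the lowest control in 4 of 4 depots. In testosterone sheep epicardial fat held 87.7, 120, 220 and 46.1 CPM, visceral 22.2, 55.0, 49.2 and 9.57 CPM, subcutaneous 51.2, 51.2, 57.2 and 7.42 CPM and perirenal 17.7, 33.8, 49.3 and 2.99 CPM. Sheep 255 was the lowest testosterone sheep in 4 of 4 depots, and in each of the 8 sheep the epicardial library held the most. The epicardial difference was 1.29 (SE 0.23, adjusted p = 0.000916) in control and 2.03 (SE 0.24, adjusted p = 0.000211) in testosterone sheep. Without the block for the animal neither passed (adjusted p = 0.328 and 0.0917). Of the summed squared deviations of NTNG1 in control sheep, 82.6% lay between sheep and 12.5% between depots, and in testosterone sheep 54.6% and 39.2%.

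The UNC5 receptors respond to netrins. UNC5D was at 2.16, 0.53, 0.225 and 0.181 CPM in subcutaneous fat of control sheep and at 7.83, 2.58, 6.55 and 4.01 CPM in perirenal fat. It was at 5.74, 0.968, 2.61 and 1.87 CPM in visceral and 1.96, 3.30, 2.07 and 4.18 CPM in epicardial fat. Perirenal libraries exceeded all subcutaneous ones, and the subcutaneous difference was -2.32 (SE 0.52, adjusted p = 0.00454). The perirenal difference of 1.51 (SE 0.37, adjusted p = 0.0132) was lost without sheep 132 (1.18, adjusted p = 0.0874). UNC5B, a receptor of endothelial cells, was at 6.55 to 19.8 CPM in epicardial and 9.45 to 38.5 CPM in perirenal control libraries (joint adjusted p = 0.0872). UNC5C fell under the filter with all 16 libraries. It had 10, 13, 5 and 11 counts in the control epicardial libraries and 0, 0, 4 and 0 in the control subcutaneous ones.

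**Figure D2:**
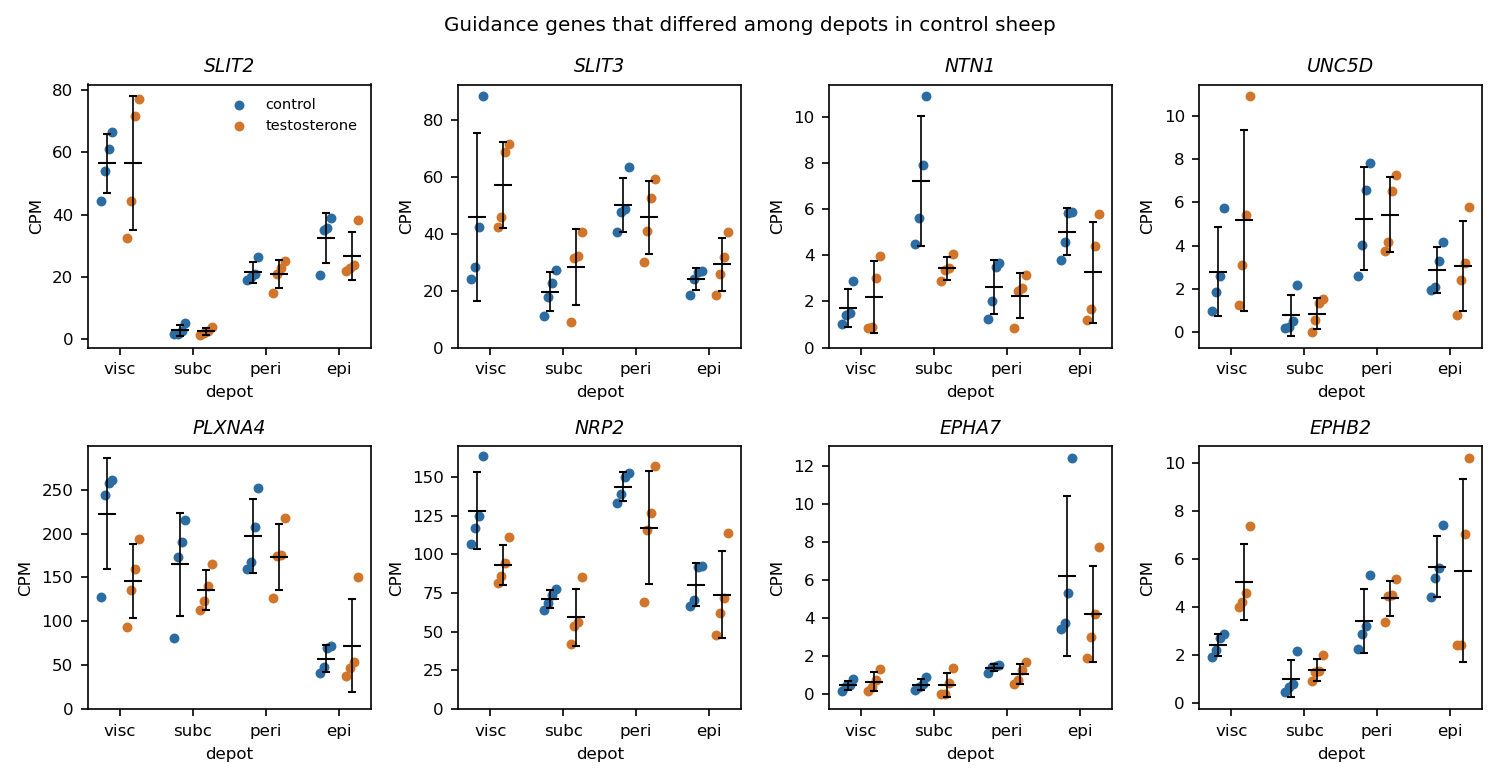
CPM of 8 guidance genes in visceral, subcutaneous, perirenal and epicardial fat of control (blue) and testosterone (orange) sheep. Points are libraries, and black marks the mean ± SD of 4. SLIT2 is at 1.35 to 5.17 CPM in the 8 subcutaneous libraries and at 14.8 CPM or more in the other 24.

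Of the 20 semaphorins 7 passed the joint test in control sheep (39.9% of all genes). The largest log2 difference among those that passed a contrast was 1.34. SEMA5A, a transmembrane semaphorin with thrombospondin repeats, was at 53.3, 80.6, 44.2 and 59.0 CPM in perirenal and 43.9, 30.7, 21.4 and 31.3 CPM in subcutaneous fat of control sheep. It was at 37.7, 30.8, 26 and 46.3 CPM in visceral and 55.9, 23.1, 27.4 and 36.7 CPM in epicardial fat. The perirenal libraries were the highest group in their mean but overlapped epicardial and visceral ones. The difference was 0.84 (SE 0.17, adjusted p = 0.00436). SEMA4D, a transmembrane ligand of PLXNB1 that T cells also carry, was at 7.52, 5.13, 5.51 and 4.59 CPM in epicardial fat and at no more than 3.40 CPM in the 12 other control libraries. Of all genes, 3% had epicardial libraries above those of the other depots, and among the tested genes of the set EPHA7 did so too. Its difference of 1.34 (SE 0.28, adjusted p = 0.00194) was lost without the cardiac-rich libraries of sheep 98 and 131 (1.19, adjusted p = 0.0628). Of 6 markers of T and NK cells, 6 were also higher in epicardial fat of control sheep, with sums of 52.2 to 98.7 CPM there, 10.3 to 22.2 CPM in subcutaneous, 38.1 to 80.0 CPM in visceral and 42.6 to 78.0 CPM in perirenal fat. Their part in the SEMA4D difference was not tested.

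SEMA3C is a secreted ligand for neuropilin and plexin receptors that human fat cells are known to release. In control sheep it was at 36.6, 123, 70.4 and 29.9 CPM in visceral, 39.3, 114, 64.1 and 31.3 CPM in subcutaneous, 28.1, 89.8, 73.5 and 34.0 CPM in epicardial and 16.5, 59.3, 36.2 and 19.9 CPM in perirenal fat. Depots overlapped between sheep, but in 4 of 4 control sheep the perirenal library held the least and sheep 131 held the most in 4 of 4 depots. The perirenal difference was -0.89 (SE 0.12, adjusted p = 0.000396) with the sheep as a block and had an adjusted p of 0.281 without it. Of its squared deviations in control sheep, 76.1% lay between sheep. In testosterone sheep the perirenal levels were 18.1, 50.5, 54.1 and 11.8 CPM and the subcutaneous levels 9.44, 32.5, 36.2 and 3.26 CPM, so that perirenal exceeded subcutaneous in 4 of 4. The perirenal contrast there was 0.25 (SE 0.35, adjusted p = 0.697).

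**Figure D3:**
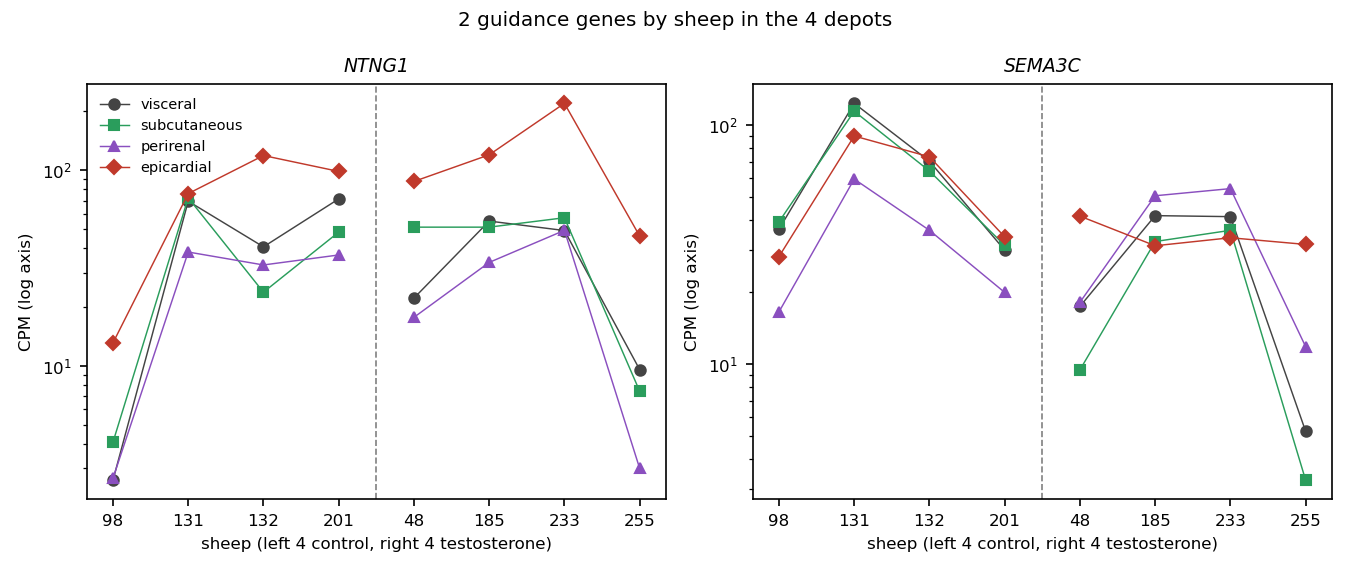
CPM (log axis) of NTNG1 and SEMA3C in the 4 depots (symbols, joined by lines within a depot) of each of 8 sheep, controls left of the dashed line. NTNG1 is lowest in sheep 98 and 255 in each depot, and perirenal SEMA3C is the lowest of the 4 depots in the 4 control sheep.

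Of the semaphorin receptors, PLXNA4 was low in epicardial fat. This plexin serves class 3 semaphorins with neuropilins and binds class 6 semaphorins directly. Control epicardial libraries held 47.4, 71.3, 40.6 and 69.1 CPM, visceral 128, 261, 244 and 258 CPM, subcutaneous 173, 215, 81.2 and 190 CPM and perirenal 160, 207, 168 and 252 CPM. The epicardial libraries lay below those of any other depot, which held for 2.9% of all genes. The difference was -1.77 (SE 0.19, adjusted p = 6.97e-06), and it lay between -1.85 and -1.71 under the 9 alternatives. In testosterone sheep the epicardial libraries held 53.5, 38.2, 46.7 and 151 CPM, and the highest was the library of sheep 255 that goes against its label. With it the difference was -1.17 (SE 0.32, adjusted p = 0.0522). Without the 3 libraries that stand apart it was -1.78 (SE 0.20, adjusted p = 0.000117).

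Neuropilins were among the most abundant of the genes. NRP2, a co-receptor known from lymphatic vessels, was at 133, 139, 153 and 150 CPM in perirenal and 73.8, 68.8, 64.1 and 77.9 CPM in subcutaneous fat of control sheep. It was at 164, 107, 117 and 125 CPM in visceral and 70.7, 66.5, 92.0 and 92.5 CPM in epicardial fat. Perirenal and visceral libraries lay above all subcutaneous and epicardial ones. The differences were 0.68 (SE 0.11, adjusted p = 0.00142) for perirenal and -0.68 (SE 0.13, adjusted p = 0.00111) for subcutaneous fat. Of the 5 lymphatic endothelial markers, 1 was higher in perirenal fat, and their sum of 56.1 to 140 CPM in perirenal overlapped that of 56.1 to 98.0 CPM in subcutaneous control libraries. NRP1 was at 184 to 342 CPM in perirenal and 259 to 497 CPM in subcutaneous control libraries, and its perirenal difference of -0.40 (SE 0.13, adjusted p = 0.0484) was lost in 7 of 9 alternatives. Without sheep 98, 131 or 201 its adjusted p was 0.224, 0.113 and 0.188.

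Of the 7 Eph receptors tested in control sheep 4 were higher (15.3% of all genes) and 1 lower (12.4%) in epicardial fat. Subcutaneous fat had 3 lower (11.6%), perirenal fat 1 higher (7.73%) and visceral fat 1 lower (2.24%). The epicardial calls of EPHB1 and EPHB3 held in 5 and 3 of 9 alternatives, and neither held without the cardiac-rich libraries. Of the 7 ephrins tested 2 were higher (15.3% of all genes) and 1 lower (12.4%) in epicardial fat. EPHA7 was at 12.4, 5.31, 3.44 and 3.76 CPM in epicardial fat of control sheep, 1.48, 1.52, 1.13 and 1.41 CPM in perirenal, 0.24, 0.53, 0.90 and 0.362 CPM in subcutaneous and 0.41, 0.484, 0.783 and 0.17 CPM in visceral fat. All epicardial libraries exceeded those of any other depot. The difference was 3.01 (SE 0.35, adjusted p = 7.69e-06) and stayed between 2.34 and 3.45 under the alternatives. In testosterone sheep EPHA7 was at 3.0, 4.22, 7.71 and 1.88 CPM in epicardial fat and at most 1.68 CPM in the other depots, and it stayed under the filter with all 16 libraries. Without the 3 libraries that stand apart it was tested, with a difference of 3.14 (SE 0.56, adjusted p = 0.00225).

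EPHB2, a receptor of the B class that binds transmembrane ephrins, was at 5.23, 4.40, 7.41 and 5.64 CPM in epicardial and 0.479, 0.794, 0.675 and 2.17 CPM in subcutaneous fat of control sheep. It was at 1.91, 2.90, 2.22 and 2.72 CPM in visceral and 5.32, 2.88, 2.27 and 3.21 CPM in perirenal fat. Epicardial libraries exceeded all subcutaneous and visceral ones. The differences were 1.47 (SE 0.30, adjusted p = 0.00163) for epicardial and -1.76 (SE 0.39, adjusted p = 0.00419) for subcutaneous fat. EFNA2, an ephrin anchored in the outer membrane leaflet, was at 5.23, 2.20, 5.0 and 3.13 CPM in epicardial and 0.886, 1.06, 1.39 and 1.41 CPM in perirenal fat, with an epicardial difference of 1.28 (SE 0.29, adjusted p = 0.00373). EFNA5, the ephrin of the highest level, had means of 118 to 134 CPM in the 4 depots of control sheep and passed no contrast. EPHB4, the venous receptor for EFNB2, was at 21.6, 17.4, 19.3 and 18.0 CPM in epicardial and 37.0, 46.0, 22.4 and 18.7 CPM in visceral control libraries. Its epicardial difference of -0.49 (SE 0.17, adjusted p = 0.0446) was lost without sheep 131 (-0.32, adjusted p = 0.253), sheep 98 (adjusted p = 0.115) or sheep 201 (adjusted p = 0.0622), and was -0.24 without the cardiac-rich libraries (adjusted p = 0.522).

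Epicardial fat also differed in markers of other cells. Cardiac muscle genes summed to 17.7 to 13460 CPM in the control epicardial libraries and to at most 39.8 CPM in the other control libraries, and TNNT2, NPPA and MYL7 were at 0 in the other 3 depots. Without the 2 cardiac-rich libraries 7 of the 17 epicardial calls were made, against 14.4% of all genes: SLIT2 (1.27), ROBO2 (1.22), NTNG1 (1.44), PLXNA4 (-1.85), EFNA2 (1.32), EPHA7 (2.34) and EPHB2 (1.69). Of 7 tested Schwann cell and neuron markers, 6 were higher in epicardial fat and 1 lower. Over the 8 libraries of a depot, control and testosterone together, NEFL, a neurofilament gene, had a mean of 33.6 CPM in epicardial fat. It was at most 0.170 CPM in the other depots. The summed list was not higher (274 to 582 CPM in epicardial, 450 to 734 in visceral control libraries), since it was carried by S100B. Of 7 fibroblast markers 5 were higher there, and of 8 endothelial markers 6 were lower. Of 10 adipocyte markers 5 were lower and 1 higher, with sums of 9971 to 24600 CPM in epicardial and 28560 to 54800 CPM in the other control libraries, and of 7 smooth muscle markers 3 were higher. The part of nerve, fibroblast, vessel, muscle and fat cells in the epicardial differences was not tested.

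Co-receptors, other ligands and cytoplasmic partners of these families were taken from a list of 79 genes, of which 66 were tested. In control sheep 37 of these passed the joint test (39.9% of all genes), and in testosterone sheep 5 of 67 tested did (4.82%). In visceral fat of control sheep 3 were higher (3.49% of all genes) and 2 lower (2.24%) than in the other depots. Subcutaneous fat had 9 higher (11.4%) and 7 lower (11.6%), and perirenal fat 4 higher (7.73%) and 6 lower (6.04%). Epicardial fat had 18 higher (15.3%) and 11 lower (12.4%). In epicardial fat the largest differences were DCC, the netrin receptor of attraction (3.07, SE 0.50, adjusted p = 0.000238), TIAM1, an exchange factor for Rac downstream of Eph receptors (1.90, SE 0.19, adjusted p = 3.78e-06), and SRGAP3, a GTPase activator that binds roundabout receptors (1.88, SE 0.39, adjusted p = 0.00191). The lowest were MET, a partner of plexin B receptors (-2.24, SE 0.18, adjusted p = 1.86e-07), FLRT2, a ligand of UNC5D (-1.4, SE 0.24, adjusted p = 0.000875), and KDR, a vascular growth factor receptor that works with neuropilins (-0.83, SE 0.25, adjusted p = 0.0240).

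In testosterone sheep fewer depot differences passed. The joint test called 3 of 52 genes, SLIT2, NTNG1 and SEMA3A (4.82% of 13411 genes). SLIT2 was the 1 gene higher in visceral fat (0.0671%), where 0 were lower (0.0224%), and the 1 lower in subcutaneous fat (1.3%). In perirenal fat edgeR called 0 (0.559%, of which 0.104% lower), with 12 at an unadjusted p under 0.05 (20.6% of all genes) and 4 by DESeq2 (6.48%). In epicardial fat 3 were higher, SLIT2, NTNG1 and EPHB3 (2.97%), and 0 lower (1.49%). Without the epicardial library of sheep 255 the epicardial calls of SLIT2 (0.85, adjusted p = 0.0578) and EPHB3 (1.16, adjusted p = 0.0519) were lost, while NTNG1 was called (1.70, adjusted p = 0.000382). Both were also lost without the cardiac-rich libraries (adjusted p = 0.620 for SLIT2 and 0.382 for EPHB3), without the block, and without sheep 48, 185 or 233 (0.166, 0.0835 and 0.206 for SLIT2, and 0.121, 0.323 and 0.213 for EPHB3). Without all 3 libraries that stand apart both passed (0.90, adjusted p = 0.00968, and 1.13, adjusted p = 0.0198). Counted in either direction the shares of all genes were 0.0895% in visceral, 2.54% in subcutaneous and 4.46% in epicardial fat. Without the 3 libraries that stand apart, which leaves 13, the joint test called 16 of 54 genes, against 17.8% of all genes. Of these, 11 were among the 22 of control sheep, which is 68.8% of the one list and 50% of the other: SLIT2, SLIT3, ROBO2, NTNG1, UNC5D, SEMA6A, PLXNA4, NRP2, EPHA7, EPHB2 and EPHB3. In that fit 12 genes differed in epicardial fat (19.4% of all genes), 5 in perirenal (6.05%), 2 in subcutaneous (2.93%) and 1 in visceral fat (0.491%). Of the 17 genes that differed in epicardial fat of control sheep, 17 had the same sign in that fit, of the 14 subcutaneous genes 13, of the 10 perirenal genes 8 and of the 7 visceral genes 7. Control and testosterone sheep are different animals. Between them, the interaction of depot and treatment passed for 0 of 55 genes of the set.

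**Figure D4:**
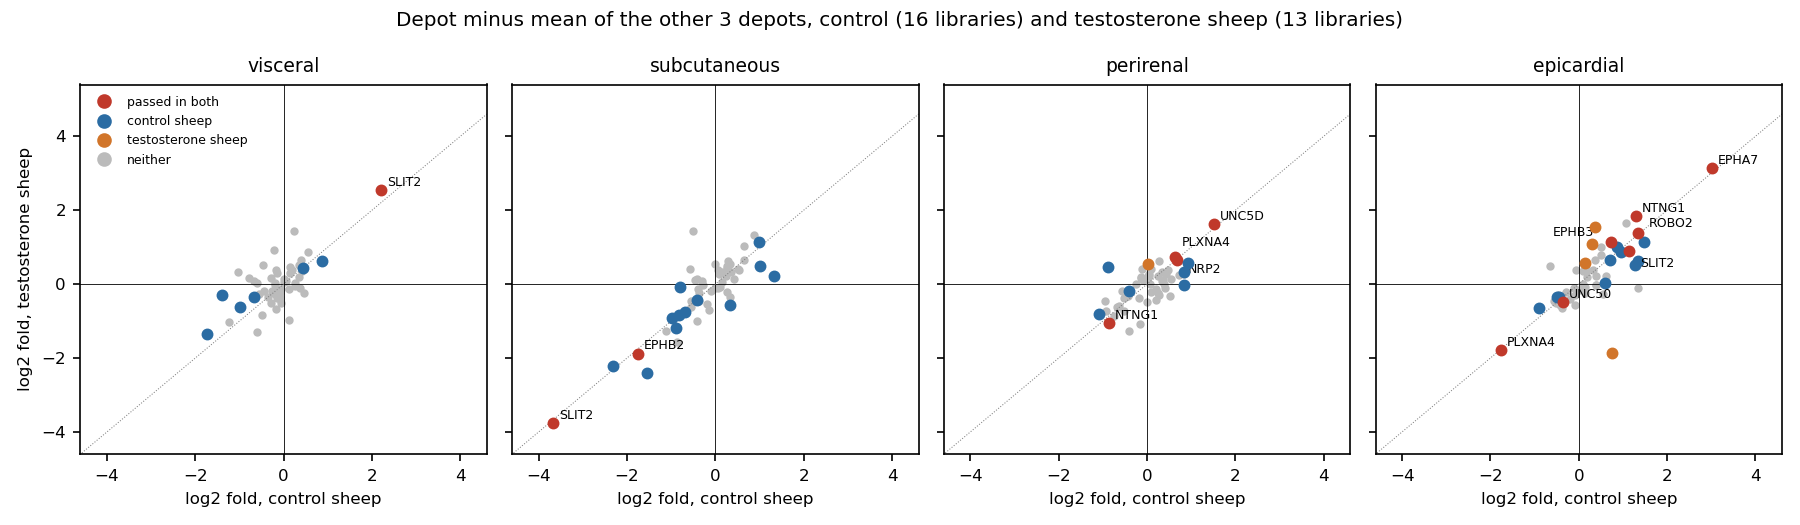
Log2 difference of each depot from the mean of the other 3 in control sheep (x axis, 16 libraries) and in testosterone sheep without the 3 libraries that stand apart (y axis, 13 libraries). Each point is a gene of the rule, red where it passed in both, blue or orange where it passed in control or testosterone sheep alone and grey in neither, and SLIT2, PLXNA4 and EPHA7 lie near the dotted line of equal values.

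No gene of the set passed a test of prenatal testosterone by edgeR. In visceral fat 0 of 49 tested genes passed, as did 0 of 12860 genes in all (0%), with 8 genes of the set at an unadjusted p under 0.05 (9.42% of all genes). In subcutaneous fat 0 of 47 passed (0%), with 4 at an unadjusted p under 0.05 (5.11% of all genes), in perirenal fat 0 of 49 (0%), with 1 (5.37%), and in epicardial fat 0 of 53 (0%), with 2 (5.65%). With counts summed over the 4 depots of a sheep 0 of 57 passed (0.00654% of all genes, that is 1 gene), with 5 at an unadjusted p under 0.05 (6.8% of all genes). DESeq2 called 1 guidance gene in visceral fat (0.163% of all genes), 1 in epicardial fat (0.188%) and 0 in subcutaneous (0.0986%), perirenal (0.0777%) and summed fat (0.412%). Without the libraries high in ARGLU1 edgeR also called 0 in visceral and subcutaneous fat, with 6 and 3 genes of the set at an unadjusted p under 0.05, against 902 of 13113 and 641 of 12379 genes in all. In visceral fat the testosterone libraries lay above all control libraries for 5 genes (EPHA4, EPHB1, EPHB2, EFNA2 and SEMA3A, 2.81% of all genes) and below them for 1 (UNC50, 2.79% of all genes). In subcutaneous fat they lay above for 1 (EPHA4, 1.55%) and below for 3 (NTN1, EPHB4 and UNC50, 1.79%). In perirenal fat this held for 0 genes in either direction (1.37% higher and 1.63% lower), and in epicardial fat for SEMA4G, SEMA6A and SEMA6C, which were higher (2.01%), and for 0 that were lower (1.7%).

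The gene called by DESeq2 in visceral fat was EPHA4, a receptor that binds ephrins of both classes. It was at 3.28, 2.74, 5.35 and 4.59 CPM in control and 8.82, 8.54, 13.2 and 12.2 CPM in testosterone sheep. The groups did not overlap, as for 2.81% of all genes in that direction. The log2 difference was 1.4 (SE 0.31), with an adjusted p of 0.521 by edgeR and 0.0320 by DESeq2, and it lay between 1.26 and 1.57 under the alternatives. These alternatives included leaving out the ARGLU1-high library of sheep 255 (12.2 CPM). In subcutaneous fat EPHA4 was at 2.40, 4.24, 4.72 and 4.88 CPM in control and 12.1, 8.57, 9.08 and 6.16 CPM in testosterone sheep, again without overlap (1.55% of all genes). The 12.1 CPM came from the shallow ARGLU1-high library of sheep 48, and the other testosterone libraries also lay above all controls. The difference there was 1.08 (SE 0.35, adjusted p = 0.927). In perirenal fat it was at 2.07, 2.73, 5.92 and 5.02 CPM against 3.63, 6.44, 10.8 and 5.85 CPM (0.78, SE 0.41, adjusted p = 0.969). In epicardial fat it was at 32.7, 5.68, 4.31 and 5.01 CPM against 3.0, 5.83, 15.4 and 6.58 CPM (-0.59, SE 0.77, adjusted p = 0.951). The groups overlapped in both of these depots. The 32.7 CPM came from the cardiac-rich epicardial library of control sheep 98, and the other epicardial control libraries held 4.31 to 5.68 CPM. The interaction test of EPHA4 gave an unadjusted p of 0.0699 and an adjusted p of 0.994.

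The gene called by DESeq2 in epicardial fat was SEMA6A, a transmembrane ligand of PLXNA2 and PLXNA4. Control epicardial libraries held 165, 162, 185 and 181 CPM and testosterone libraries 254, 304, 336 and 236 CPM. The groups did not overlap (2.01% of all genes in that direction). The difference was 0.71 (SE 0.16), with an adjusted p of 0.697 by edgeR and 0.00704 by DESeq2, and it lay between 0.58 and 0.80 under the alternatives. In the other depots the groups of SEMA6A overlapped, with differences of 0.59 (SE 0.37) in visceral, 0.61 (SE 0.28) in subcutaneous and -0.09 (SE 0.30) in perirenal fat. In epicardial fat SEMA4G, a class 4 transmembrane semaphorin, was at 2.29, 2.02, 0.689 and 1.04 CPM in control and 5.41, 3.01, 2.89 and 3.01 CPM in testosterone sheep (1.23, SE 0.48, adjusted p = 0.834), with 1.32 without the library of sheep 255 and 1.80 without the cardiac-rich ones. Its groups did not overlap either.

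Other genes came nearest to a difference in 1 depot each. Visceral SEMA3A, a secreted repellent that acts through NRP1, was at 5.74, 6.61, 4.04 and 5.10 CPM in control and 6.61, 7.67, 26.7 and 22.6 CPM in testosterone sheep. The means of 5.37 ± 1.08 and 15.9 ± 10.2 CPM (SD, n = 4) rested on 2 high libraries, of sheep 233 and 255 (1.54, SE 0.46, adjusted p = 0.521). Without the ARGLU1-high library of sheep 255 the difference was 1.33 (SE 0.47, adjusted p = 0.636). Subcutaneous NTN1 was at 7.91, 10.9, 4.5 and 5.61 CPM in control and 4.05, 3.38, 2.87 and 3.44 CPM in testosterone sheep (-1.11, SE 0.37, adjusted p = 0.927), and without the ARGLU1-high library of sheep 48 the difference was -1.14 (SE 0.39, adjusted p = 0.877). These groups did not overlap (1.79% of all genes in that direction). Perirenal EPHB4 was at 30.1, 32.8, 17.4 and 25.1 CPM against 21.8, 11.4, 10.8 and 15.6 CPM (-0.84, SE 0.27, adjusted p = 0.881), and perirenal EFNA4, an ephrin of the A class, at 2.07, 2.28, 1.64 and 2.01 CPM against 1.69, 0.644, 1.12 and 1.36 CPM (-0.75, SE 0.38, adjusted p = 0.969). Both pairs of groups overlapped. With summed counts the smallest p belonged to SEMA5B, a transmembrane relative of SEMA5A (0.97, SE 0.28, adjusted p = 0.632), and PLXNA2, a plexin for class 3 and class 6 semaphorins (-0.36, SE 0.14, adjusted p = 0.710). In visceral fat SEMA5B was at 0.957, 0.968, 0.391 and 1.02 CPM in control and 5.21, 1.36, 3.26 and 8.26 CPM in testosterone sheep and fell under the filter of that fit. The 8.26 CPM came from the ARGLU1-high library of sheep 255, and the other testosterone libraries also lay above all controls. The summed counts included the ARGLU1-high libraries.

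**Figure D5:**
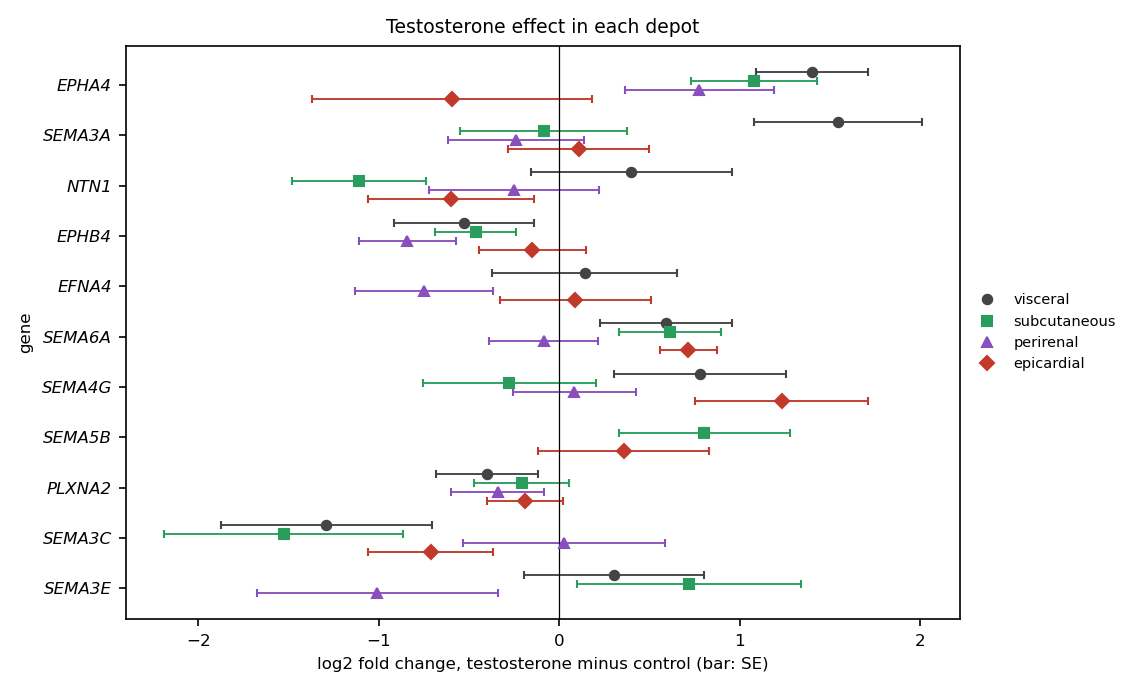
Log2 fold change, testosterone minus control, with its SE, in each depot (symbols) for the guidance genes with the smallest p in a testosterone or interaction test. Genes under the count filter of a depot have no symbol there. EPHA4 is 1.4 in visceral and 1.08 in subcutaneous fat, and SEMA3C is -1.29 in visceral and 0.03 in perirenal fat.

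The interaction of depot and treatment asks whether the testosterone effect differs between depots. By edgeR 0 of 55 genes of the set passed (0.00703% of all genes, that is 1 gene), with 5 at an unadjusted p under 0.05 (4.61% of all genes), and DESeq2 called 0 (0.0703%). The smallest p was that of SEMA3C. Its levels by sheep are given above for control sheep and, in testosterone sheep, for perirenal and subcutaneous fat. With all libraries included, the testosterone effect of SEMA3C was -1.53 (SE 0.66) in subcutaneous, -1.29 (SE 0.59) in visceral, -0.71 (SE 0.35) in epicardial and 0.03 (SE 0.56) in perirenal fat. Its interaction had an unadjusted p of 0.00404 and an adjusted p of 0.994. SEMA3E, a secreted ligand that binds PLXND1 without a neuropilin, followed. In epicardial fat it was at 6.22, 4.03, 2.93 and 1.67 CPM in control and 1.20, 0.201, 0.964 and 2.07 CPM in testosterone sheep. In subcutaneous fat it was at 1.44, 0.794, 1.80 and 5.24 CPM against 4.05, 1.04, 5.45 and 5.07 CPM. The groups overlapped in both depots. In epicardial fat the overlap came from the 2.07 CPM of testosterone sheep 255, whose epicardial library goes against its label. The other testosterone libraries there lay below all controls. Without that library SEMA3E passed the epicardial depot contrast in testosterone sheep. In the same setting 0 of 55 genes of the set passed the testosterone test in epicardial fat. With all libraries the interaction of SEMA3E had an unadjusted p of 0.00640 and an adjusted p of 0.994.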

How the data were processed

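RNA 3′ end libraries (QuantSeq) of 32 fat samples were analysed. The authors deposited 1 table of raw read counts per gene. Per the submitters' processing notes the tools were STAR and Trimmomatic 0.36, featureCounts 1.6.1 for counting, DESeq2 1.24.0 under R 3.6.3, and FastQC 0.11.5 with MultiQC 0.9 for quality. Strand setting, annotation and genome build: not given in the sources used here. Whether reads of overlapping genes on opposite strands were told apart in counting is therefore not known, and no coordinates or sequences are printed.

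Counts were tested as deposited with edgeR 4.0.16 in R 4.3.3: TMM scaling, a filter on low counts (filterByExpr, minimum count 10), robust quasi-likelihood fits and Benjamini-Hochberg adjustment over all genes tested, at 0.05. SE is the log2 difference divided by the root of F. CPM uses library sizes times TMM factors. Depots were compared within each treatment group with sheep as a block, since the 4 depots come from the same animals, and testosterone with control within each depot, on counts summed per sheep, and as an interaction. Residuals of the depots of a sheep correlated above 0.1 in 41 of 48 pairs (mean 0.230). Alternatives were DESeq2 1.42.0 (its size factors, its test), no filter, no block, each sheep left out, and the cardiac-rich or ARGLU1-high libraries left out. Leaving out the epicardial library of testosterone sheep 255, alone or with the ARGLU1-high ones, was added after the data were seen. Replicates came from separate animals, and of 48 replicate pairs 0 were identical. The scripts were tested on simulated data.

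Members and gene lists were chosen with earlier results of these data known. Genes named by rule were those passing the joint depot test in both groups with non-overlapping extreme depots, the 2 with the smallest p in each testosterone or interaction test, the gene of the highest mean level in each family, and the 3 largest called differences per direction of the pathway list.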

Additional observations from a re-analysis of the deposited data

Results flagged for a closer look

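A check for stray libraries covered part of the genes named above. It left out SEMA4G, which had 1 high library in epicardial fat of testosterone sheep. In 11 of 176 groups of 4 libraries 1 library lay far from the other 3 by Dixon's gap ratio, where chance flags about 1 in 20 groups. In 4 of these the library was from testosterone sheep 255: ROBO4 in visceral fat (137 CPM, others 45.5 to 56.2), NTNG1 in subcutaneous fat (7.42, others 51.2 to 57.2), SEMA5A in subcutaneous fat (59.2, others 36.4 to 40.1) and PLXNA4 in epicardial fat (151, others 38.2 to 53.5). Control sheep 98 gave 3: NTNG1 in perirenal fat (2.66 CPM, others 32.8 to 38.2), PLXNA4 in visceral fat (128, others 244 to 261) and EPHA4 in epicardial fat (32.7, others 4.31 to 5.68). Testosterone sheep 233 gave SLIT2 in epicardial fat (38.1 CPM, others 21.7 to 23.7) and EPHB3 in perirenal fat (6.71, others 2.90 to 3.15). The other two were SEMA5A in visceral fat of testosterone sheep 185 (25 CPM, others 55.3 to 59.1) and NRP1 in perirenal fat of control sheep 132 (342 CPM, others 184 to 201).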

How the results depend on the processing

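All 48 depot differences called in control sheep kept their sign under the 9 alternatives, and 17 stayed past the threshold in each. Values below are numbers of genes of the set called, given here without the shares of all genes in the same fits. Alone they cannot tell a shift of the set from a shift of all genes. Without the replicate block, 2 were called in visceral and 5 in perirenal fat of control sheep, and 2 in subcutaneous and 0 in epicardial fat of testosterone sheep. Without the cardiac-rich epicardial libraries, control sheep gave 3 in visceral and 7 in epicardial fat, and testosterone sheep 2 in subcutaneous and 1 in epicardial fat. In testosterone sheep no filter gave 6 in the joint test, 5 in epicardial, 4 in subcutaneous, 2 in visceral and 1 in perirenal fat, and DESeq2 gave 11, 5, 6, 2 and 4. Without the ARGLU1-high libraries the joint test gave 13, perirenal fat 1 and epicardial fat 12. Without the epicardial library of sheep 255 the joint test gave 8, subcutaneous and perirenal fat 2 each and epicardial fat 5, and without all 3 libraries 16, 2, 5 and 12. DESeq2 called 1 gene for testosterone in visceral and 1 in epicardial fat. The cause of these shifts was not tested.

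Leaving out each sheep gave, in control sheep, 14 to 22 in the joint test, 11 to 16 in epicardial, 7 to 12 in subcutaneous, 5 to 10 in perirenal and 2 to 4 in visceral fat. In testosterone sheep it gave 2 to 5 in the joint test, 1 to 3 in subcutaneous, 1 in visceral, 0 in perirenal and 1 to 7 in epicardial fat, where the highest value was without sheep 255. The testosterone and interaction tests gave 0 throughout. Genes under about 1 CPM rested on few counts per library.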
